A study of Homo sapiens with 8 samples.

Results

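The 10 genes described here carry the TGF-beta signal from secreted ligand to nucleus in IMR90, a line of human lung fibroblasts. They are the ligand genes TGFB1, TGFB2, TGFB3 and INHBA, the receptor genes TGFBR1 and TGFBR2, the signal-carrying SMAD2 and SMAD3, and the inhibitors SMAD7 and SKIL. They were chosen by symbol, and all 10 were found among the 28265 genes of the count tables. The study treated IMR90 with inflachromene (ICM), a small molecule that binds the chromatin proteins HMGB1 and HMGB2, and followed the cells into a senescence-like arrest. RNA was profiled by "factory" RNA-Seq, in which nascent RNA held at the sites of transcription is isolated from nuclei and sequenced. There are 8 libraries in 4 conditions with 2 libraries each: control cells, which the labels call young, cells after 3 days of ICM, cells after 6 days of ICM, and cells labelled MetaICM. ICM was used at 10 µM. MetaICM is used here as a label only, since the paper's text does not explain it, and the labels do not name a vehicle for the control libraries. All libraries come from the same cell line, and nothing in the labels says whether the 2 libraries of a condition come from separate cultures, so the p-values below measure the spread between these libraries, which may be technical. The sample labels describe lysis of whole cells and poly(A) selection although the titles name the factory method, so how far these exon counts reflect nascent rather than mature RNA was not tested.

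TGF-beta ligands are secreted in a latent form that is bound to the matrix and has to be released. The active ligand binds the type II receptor (TGFBR2), which recruits and activates the type I receptor (TGFBR1). TGFBR1 then phosphorylates SMAD2 and SMAD3, which enter the nucleus with SMAD4 and change the transcription of many genes. INHBA encodes the subunit of activin A, a related ligand that uses other receptors but the same SMADs. SMAD7 blocks the type I receptor and SKIL (SnoN) represses SMAD targets in the nucleus, and both are themselves induced by the signal. In fibroblasts the pathway is best known for driving matrix production and the contractile program of myofibroblasts.

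The libraries held between 12095123 and 23166405 counted read pairs, over all genes. Levels are given as CPM, read-pair counts scaled to a common library size with TMM factors over the 8 libraries. Differences are log2 fold changes (log2FC) with their standard errors (SE) from the quasi-likelihood test of edgeR, and p-values were adjusted over all genes tested by the Benjamini-Hochberg method. A gene was called higher or lower when its adjusted p was under 0.05 and its absolute log2FC over 0.6. The control libraries were the least alike, with a Pearson correlation of 0.984 over all genes between them against 0.990 to 0.993 within the other conditions, and several calls below depend on which control library is kept. Among the members, exon counts ran from 28 pairs for TGFB3 to 5909 pairs for SMAD3 in a library, so the error of TGFB3 is the largest. In such bulk libraries, fewer cells of a type and less RNA per cell cannot be told apart.

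Called members went both ways after 3 days of ICM and downward after 6 days and in MetaICM. After 3 days of ICM, TGFBR1 was higher and TGFB3 lower than in control, which makes 2 of 10 members called, while 22.0% of all genes tested were called in that comparison (8.85% higher and 13.2% lower). After 6 days, TGFB3, INHBA and SKIL were lower than in control and no member was called higher, by edgeR or by DESeq2. These 3 of 10 members compare with 30.5% of all genes (13.3% higher and 17.2% lower). TGFBR2 was higher after 6 days with an edgeR adjusted p of 0.00570 and missed only the cutoff of 0.6 (log2FC 0.58). In MetaICM, TGFB3, TGFBR1 and SKIL were lower than in control, again 3 of 10, with 16.4% of all genes called (7.41% higher and 8.99% lower). The share of members called against control was thus close to that of all genes after 3 and 6 days. The median log2FC of the members was −0.02 after 3 days, −0.39 after 6 days and −0.52 in MetaICM, and that of all genes tested lay within 0.01 of 0. The 3 comparisons share the control libraries, so they are not independent of each other.

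**Figure D1:**
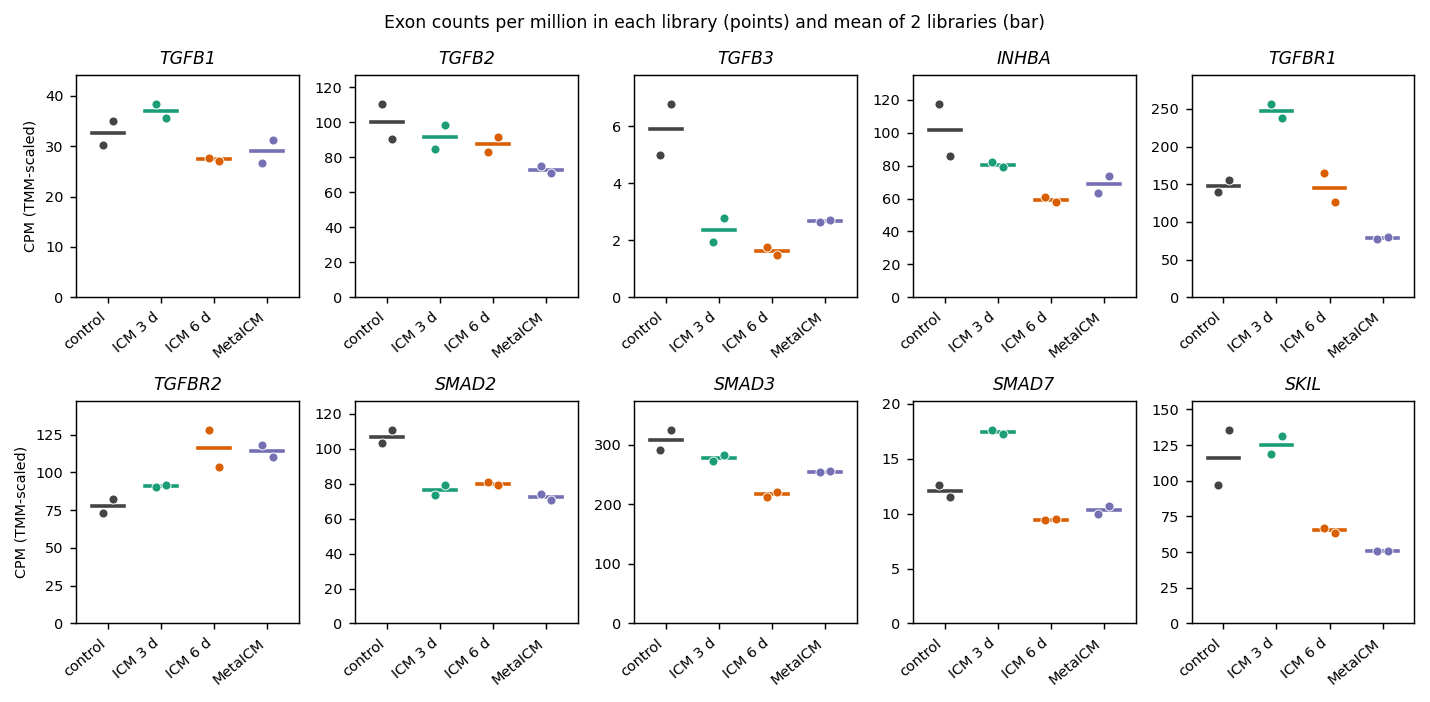
CPM of the 10 members in each library (points, 2 per condition) with the mean of the condition (bar), on a linear axis that starts at 0 for each gene. TGFBR1 was highest after 3 days of ICM (257 and 239 CPM) and lowest in MetaICM (77.1 and 79.8 CPM), and SKIL and SMAD7 were lower after 6 than after 3 days.

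The conditions with ICM in their label were also compared with each other. After 6 days compared with 3 days, TGFBR1, SMAD7 and SKIL were lower, 3 of 10 members, against 8.07% of all genes (3.53% higher and 4.54% lower). The same 3 members were lower in MetaICM than after 3 days of ICM, where 23.4% of all genes were called (13.1% higher and 10.3% lower). Both comparisons use the 3-day libraries. In MetaICM compared with 6 days, TGFBR1 was lower and TGFB3 higher, 2 of 10, with 27.7% of all genes called (15.7% higher and 12.0% lower).

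TGFB1, the ligand gene most widely studied in fibrosis, lies on chromosome 19 of hg19 from 41836228 to 41859827 on the minus strand. It received 30.3 and 35.0 CPM in the control libraries, 38.5 and 35.5 CPM after 3 days, 27.8 and 27.0 CPM after 6 days and 26.7 and 31.3 CPM in MetaICM. The 3-day libraries were the highest and the 6-day libraries sat with MetaICM at the bottom, but no pair of conditions reached the cutoff. Its 6-day level was below the 3-day level by a log2FC of −0.44 (SE 0.11, adjusted p = 0.00783), which is under the cutoff of 0.6, and against control it was not significant at either time (adjusted p = 0.391 and 0.151).

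TGFB2, on chromosome 1 from 218518626 to 218617961 on the plus strand, had the highest level per kilobase of the 3 TGF-beta ligand genes in every library. Its libraries gave 111 and 90.2 CPM in control, 84.7 and 98.7 CPM after 3 days, 83.1 and 91.9 CPM after 6 days, and 75.0 and 71.0 CPM in MetaICM. The control and ICM libraries overlapped, and both MetaICM libraries lay below all others. Against control the MetaICM difference was a log2FC of −0.47 (SE 0.12, adjusted p = 0.0200), under the cutoff, and it became −0.60 and was called without control replicate 2. Of the 6004 exon bases of TGFB2, 1370 are shared with TGFB2-OT1 on the same strand and 181 with TGFB2-AS1 on the opposite strand, and pairs on shared bases were not counted. TGFB2-OT1 received no pair in any library and TGFB2-AS1 between 2 and 9.

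TGFB3, on chromosome 14 from 76424404 to 76449354 on the minus strand, was the one of the 3 TGF-beta ligand genes that fell. It had 4.99 and 6.79 CPM in control, 1.93 and 2.76 CPM after 3 days, 1.77 and 1.49 CPM after 6 days and 2.62 and 2.69 CPM in MetaICM. Both control libraries lay above all 6 others. Against control its log2FC was −1.34 after 3 days (SE 0.30, adjusted p = 0.00518), −1.84 after 6 days (SE 0.28, adjusted p = 0.000466) and −1.13 in MetaICM (SE 0.24, adjusted p = 0.00799). The 3-day call was lost without 3-day replicate 1 (log2FC −1.10) and the MetaICM call without MetaICM replicate 2, where the log2FC of −1.14 had an adjusted p of 0.0550 by edgeR, while the 6-day call held without any one library. Compared with 6 days, TGFB3 was higher in MetaICM by 0.71 (SE 0.26, adjusted p = 0.0288), a call that DESeq2 did not make and that was lost without either MetaICM library or 6-day replicate 2.

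Per kilobase of exon, TGFB1 and TGFB2 made up nearly all the RNA of TGFB1, TGFB2 and TGFB3 in every library, with INHBA left out. TGFB2 accounted for 60.3% and 51.2% of the summed CPM per kilobase of TGFB1, TGFB2 and TGFB3 in control, 49.6% and 55.0% after 3 days, 57.0% and 60.3% after 6 days, and 54.9% and 49.8% in MetaICM. These shares overlapped among all conditions, and a division by the 4453 exon bases that no other gene shares raised them to between 57.0% and 67.2%. The share of TGFB3 was 4.11% and 5.83% in control and between 1.48% and 2.91% in every other library.

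INHBA, which encodes the activin A subunit on chromosome 7 from 41724712 to 41742688, had its highest value in a control library. The libraries held 118 and 86.0 CPM in control, 82.1 and 79.0 CPM after 3 days, 60.6 and 57.8 CPM after 6 days and 63.4 and 73.7 CPM in MetaICM. The control libraries differed from each other more than those of any other condition, and the 6-day libraries were the lowest. INHBA fell by 6 days with a log2FC of −0.79 against control (SE 0.15, adjusted p = 0.00177), which shrank to −0.55 and lost the call without control replicate 1. In MetaICM the log2FC was −0.58 (SE 0.15, adjusted p = 0.0189), under the cutoff, and it was called without control replicate 2 (−0.78) and after thinning every library to the lowest total count (−0.62). Per kilobase, with TGFB2 divided by its 4453 unshared exon bases, INHBA stood to TGFB2 as 0.783 and 0.702 to 1 in control and as 0.538 and 0.463 to 1 after 6 days. With all 6004 bases these ratios were 1.06 and 0.947 in control and 0.725 and 0.624 after 6 days. Ratios of INHBA to TGFB2 were not among those planned.

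TGFBR1, the type I receptor gene on chromosome 9 from 101867395 to 101916473 on the plus strand, showed the widest swing among the receptors and SMADs. It received 139 and 156 CPM in control, 257 and 239 CPM after 3 days, 165 and 127 CPM after 6 days, and 77.1 and 79.8 CPM in MetaICM. The 3-day libraries lay above all others and the MetaICM libraries below all others, while the 6-day libraries enclosed the control range. TGFBR1 rose after 3 days with a log2FC of 0.75 against control (SE 0.13, adjusted p = 0.000896) and showed −0.02 after 6 days (SE 0.14, adjusted p = 0.907). It was lower after 6 than after 3 days by −0.77 (SE 0.11, adjusted p = 4.42e-05), a call that narrowly missed the cutoff without 6-day replicate 2 (−0.60). In MetaICM it fell by −0.91 against control (SE 0.11, adjusted p = 0.000524), by −1.66 against 3 days (SE 0.08, adjusted p = 1.46e-09) and by −0.89 against 6 days (SE 0.09, adjusted p = 6.40e-08). These 3 calls held without any one library.

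TGFBR2, the type II receptor gene on chromosome 3 from 30647994 to 30735633 on the plus strand, had its lowest values in control. Its values were 72.8 and 82.1 CPM in control, 90.2 and 91.7 CPM after 3 days, 128 and 104 CPM after 6 days and 118 and 110.0 CPM in MetaICM. All 6 other libraries lay above both control libraries. No difference reached the cutoff: the log2FC against control was 0.23 after 3 days (adjusted p = 0.209), 0.58 after 6 days (SE 0.13, adjusted p = 0.00570) and 0.55 in MetaICM (SE 0.11, adjusted p = 0.00641). With library totals in place of TMM the 6-day value became 0.62 and was called, as it was with all genes with a count (0.61) and without control replicate 2 or 6-day replicate 2 (0.67 and 0.73). The MetaICM value was called without control replicate 2 (0.64).

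The balance of the receptor genes therefore separated all 4 conditions. Per kilobase of exon, TGFBR1 stood to TGFBR2 as 1.38 and 1.37 to 1 in control, 2.06 and 1.88 to 1 after 3 days, 0.928 and 0.882 to 1 after 6 days and 0.473 and 0.524 to 1 in MetaICM. The libraries of no condition overlapped with those of another. With 2 libraries per condition no exact permutation test of this ratio between 2 conditions could reach significance, and no test of it was run. How many other genes, or ratios of genes, also showed no overlap between conditions was not counted.

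**Figure D2:**
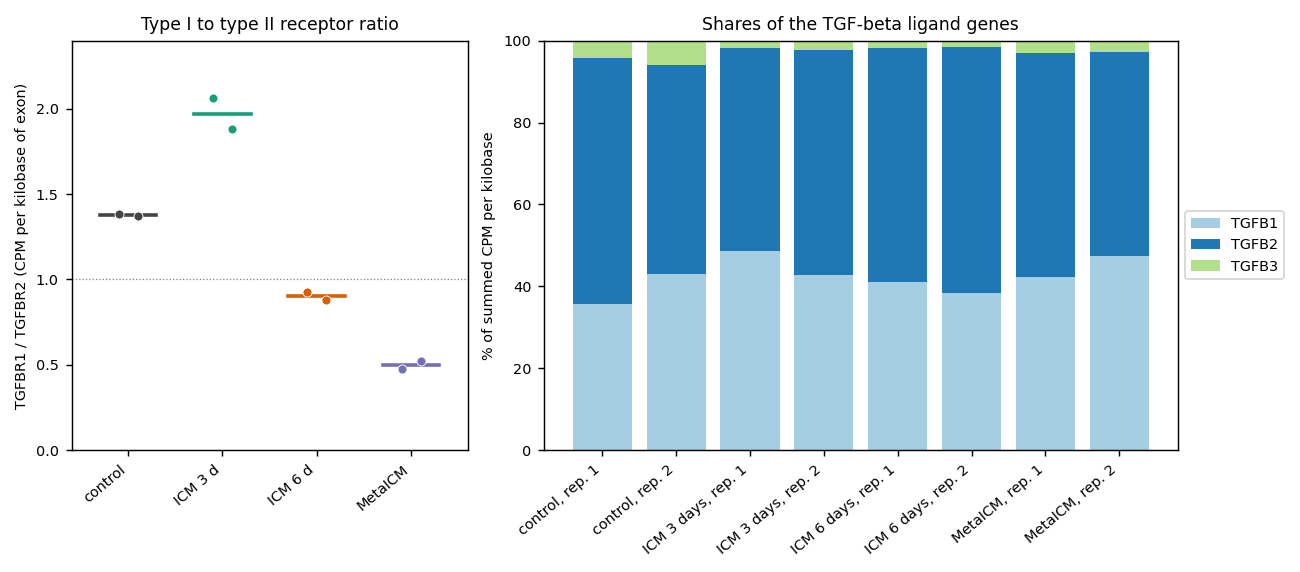
Left, ratio of TGFBR1 to TGFBR2 in CPM per kilobase of exon for each library (points) with the mean of each condition (bar), which was 1.38 in control, 1.97 after 3 days, 0.905 after 6 days and 0.499 in MetaICM. Right, stacked bars from 0 to 100% give the shares of TGFB1, TGFB2 and TGFB3 in their summed CPM per kilobase in each library, with TGFB3 largest in control (4.11% and 5.83%).

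**Figure D3:**
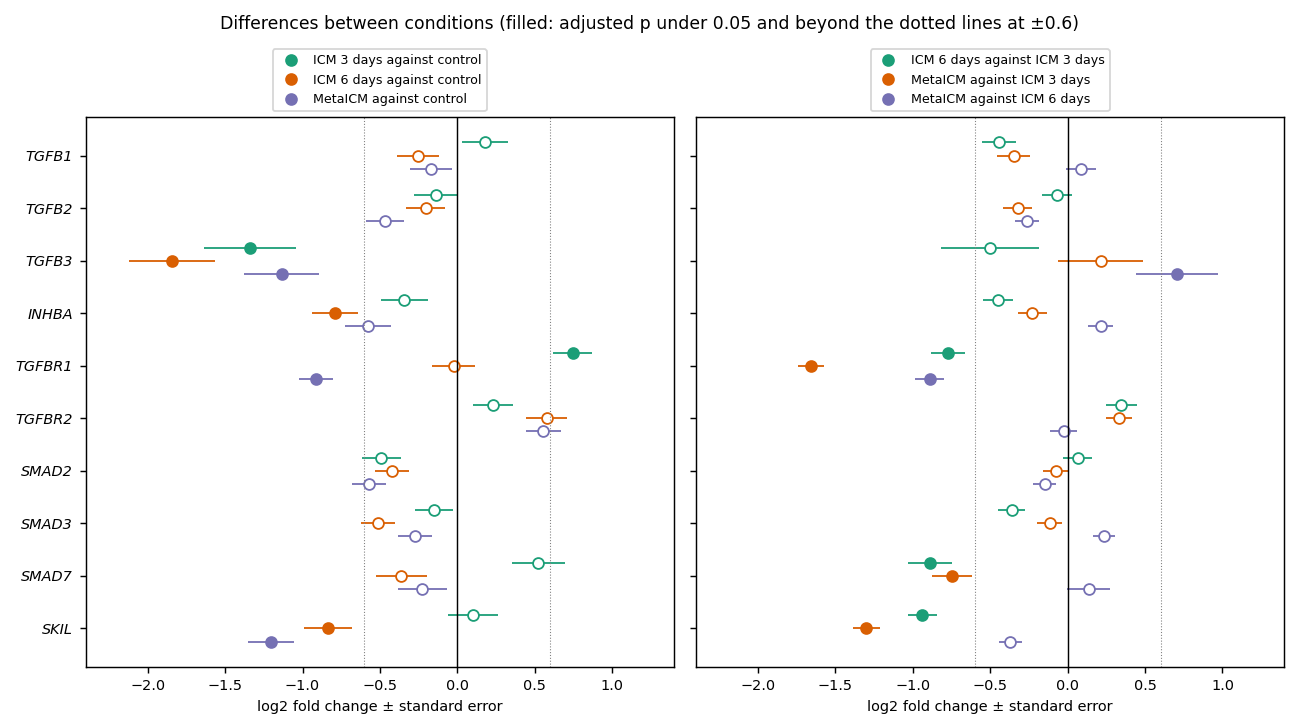
log2FC (points) with its standard error (lines) for each member, against control on the left and among the conditions with ICM in their label on the right, with filled points for called genes and dotted lines at the cutoff of 0.6 in either direction. TGFB3 lies to the left in all 3 comparisons with control, and TGFBR1 reaches −1.66 for MetaICM against 3 days.

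SMAD2, on chromosome 18 from 45335328 to 45457517, encodes a carrier of both TGF-beta and activin signals. It had 103 and 111 CPM in control, 73.6 and 79.1 CPM after 3 days, 80.9 and 79.2 CPM after 6 days, and 73.9 and 70.5 CPM in MetaICM. Both control libraries lay above all others, which ran from 70.5 to 80.9 CPM. Relative to control, the log2FC was −0.49 after 3 days (SE 0.13, adjusted p = 0.0118), −0.42 after 6 days (SE 0.11, adjusted p = 0.0111) and −0.57 in MetaICM (SE 0.11, adjusted p = 0.00466), each under the cutoff. In MetaICM the value became −0.60 and was called when all libraries were thinned to the smallest total, and −0.62 and called without control replicate 1.

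SMAD3, the more abundant of the signal carriers, lies on chromosome 15 from 67357940 to 67487533. Its CPM were 290.3 and 325 in control, 272 and 283 after 3 days, 213 and 219.6 after 6 days and 254 and 256 in MetaICM. The order ran from control over 3 days and MetaICM to 6 days without overlap, and no pair reached the cutoff. The largest difference was at 6 days against control, with a log2FC of −0.51 (SE 0.11, adjusted p = 0.00430). SMAD3 was 13.4 to 18.8 times as high as SMAD2 per kilobase, a ratio that depends on the 34973 exon bases annotated for SMAD2 against 6878 for SMAD3.

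SMAD7, the inhibitor of the type I receptor on chromosome 18 from 46446223 to 46477081, had its highest values after 3 days. It received 12.6 and 11.5 CPM in control, 17.6 and 17.2 CPM after 3 days, 9.40 and 9.46 CPM after 6 days and 10 and 10.7 CPM in MetaICM. The libraries of no condition overlapped with those of another. Against control the 3-day log2FC of 0.52 (SE 0.17, adjusted p = 0.0360) stayed under the cutoff, and it became 0.60 and was called with library totals in place of TMM. The 6-day value of −0.36 was not significant (adjusted p = 0.101). From 3 to 6 days SMAD7 fell by a log2FC of −0.89 (SE 0.14, adjusted p = 0.000165), and MetaICM was lower than 3 days by −0.75 (SE 0.13, adjusted p = 0.000352).

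SKIL, the nuclear repressor SnoN on chromosome 3 from 170075503 to 170114637, fell late. The libraries gave 96.9 and 136 CPM in control, 119 and 131 CPM after 3 days, 67.2 and 63.4 CPM after 6 days, and 50.5 and 50.5 CPM in MetaICM. The 3-day libraries fell inside the control range and the 6-day and MetaICM libraries lay below it. Compared with control, the log2FC was 0.10 after 3 days (SE 0.16, adjusted p = 0.673), −0.84 after 6 days (SE 0.16, adjusted p = 0.00177) and −1.20 in MetaICM (SE 0.15, adjusted p = 0.000654). Without control replicate 2 the 6-day value was −0.57 and lost its call, while the MetaICM call held without any one library. Compared with 3 days, SKIL was lower after 6 days by −0.94 (SE 0.09, adjusted p = 7.12e-07) and in MetaICM by −1.30 (SE 0.09, adjusted p = 2.84e-08), and both calls held in every alternative run.

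Since TGFBR1, SMAD7 and SKIL were called lower together after 6 days and in MetaICM compared with 3 days, their promoter windows are shown, with that of TGFBR2, which was not called in any of the 6 comparisons. Each window holds 250 bases before and 50 after a RefSeq transcript start (sequences from the RefSeq table of GRCh38.p14, found by exact match in GRCh37, to which the coordinates refer). All 10 members had a window. Capitals mark matches on either strand to CAGAC (the SMAD box), TGANTCA (the AP-1 element) or TGACGTCA (the cAMP response element).
TGFBR1 (chr9:101867145-101867444, plus strand): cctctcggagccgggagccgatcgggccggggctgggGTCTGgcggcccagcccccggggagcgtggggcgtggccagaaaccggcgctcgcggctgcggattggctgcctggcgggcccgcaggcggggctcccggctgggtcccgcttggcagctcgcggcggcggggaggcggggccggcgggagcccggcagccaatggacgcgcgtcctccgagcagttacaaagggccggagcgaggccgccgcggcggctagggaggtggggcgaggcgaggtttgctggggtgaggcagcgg
TGFBR2 (chr3:30647843-30648142, plus strand): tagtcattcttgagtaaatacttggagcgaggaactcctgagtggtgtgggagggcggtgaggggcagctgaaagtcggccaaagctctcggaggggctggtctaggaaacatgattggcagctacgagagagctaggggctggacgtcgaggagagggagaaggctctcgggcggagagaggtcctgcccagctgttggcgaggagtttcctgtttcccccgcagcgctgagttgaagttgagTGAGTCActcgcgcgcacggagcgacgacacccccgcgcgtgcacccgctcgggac
SMAD7 (chr18:46477286-46477585, minus strand): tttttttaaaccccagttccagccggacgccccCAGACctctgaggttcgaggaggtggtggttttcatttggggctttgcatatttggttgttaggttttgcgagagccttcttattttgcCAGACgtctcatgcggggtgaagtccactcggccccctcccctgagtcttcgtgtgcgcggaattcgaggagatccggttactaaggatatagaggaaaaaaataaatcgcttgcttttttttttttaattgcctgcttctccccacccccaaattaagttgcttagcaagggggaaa
SKIL (chr3:170075253-170075552, plus strand): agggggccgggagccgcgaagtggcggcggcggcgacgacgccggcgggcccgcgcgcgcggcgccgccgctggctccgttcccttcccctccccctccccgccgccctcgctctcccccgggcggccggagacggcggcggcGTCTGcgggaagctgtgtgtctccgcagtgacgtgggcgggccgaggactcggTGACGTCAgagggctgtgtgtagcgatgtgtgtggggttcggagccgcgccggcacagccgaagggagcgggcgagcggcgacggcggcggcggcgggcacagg
CAGAC was present in the windows of 7 of 10 members and in 45.3% of all 34796 windows of the table, which have the same length. In TGFBR1 the match, as GTCTG, ran from position −213 to −209 with the start site at 0. SMAD7 held CAGAC at −217 to −213 and at −128 to −124. The window of SKIL held GTCTG at −107 to −103 and TGACGTCA, which was in 1.84% of all windows, at −54 to −47. TGFBR2 alone among the members held TGANTCA, read as TGAGTCA from −6 to 0, an element found in 7.73% of all windows. The palindromic SMAD element GTCTAGAC was in 0 of the 10 windows and in 0.193% of all windows. The motifs cannot lie inside each other, though TGACGTCA may share its last bases with CAGAC. The SMAD7 window starts from a transcript start 254 bases upstream of the 5′ end annotated in the count tables, and that of TGFBR2 from a start 99 bases downstream of it. A match is a description of the letters only.

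Ordered by mean CPM, the conditions ranked 3 days, control, 6 days and MetaICM for TGFBR1, and for SKIL likewise. For TGFBR1 the neighbours differed by the test except control and 6 days, and for SKIL only control and 6 days did. TGFB3 ranked control, MetaICM, 3 days and 6 days, with a called difference only between control and MetaICM. For TGFB1, TGFB2, INHBA, TGFBR2, SMAD2, SMAD3 and SMAD7 no neighbours in the order were called. Among the 16581 genes kept over all 8 libraries, the gene whose log2 CPM followed TGFBR1 most closely was PCMTD1 (Pearson r = 0.985), that for SKIL was TCF4 (r = 0.993), for SMAD7 it was PER1 (r = 0.983) and for TGFB3 it was ANKH (r = 0.995). For INHBA it was BRD1 (r = 0.979), for TGFB1 it was ABL1 (r = 0.988) and for TGFBR2 it was TXNDC15 (r = 0.977). For TGFB2 it was CKMT2 (r = 0.991), for SMAD2 it was QRICH2 (r = 0.991) and for SMAD3 it was CEP295NL (r = 0.996). These correlations are over 8 libraries that form 4 pairs and are descriptions, chosen as the highest of many.

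The other genes of the pathway were listed by role, 61 genes in all, and described in the same fits. Of those tested, 25 of 56 were called after 3 days against control, 31 of 56 after 6 days and 12 of 55 in MetaICM, with 20, 26 and 10 of them lower. These are 44.6%, 55.4% and 21.8% of the list, beside 22.0%, 30.5% and 16.4% of all genes tested. The list was chosen with earlier results of these data known, so these shares, and those below, are descriptions and no test of the pathway. The median log2FC of the list was −0.16, −0.35 and −0.25. Most of the calls lay among target genes and genes of latency.

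**Figure D4:**
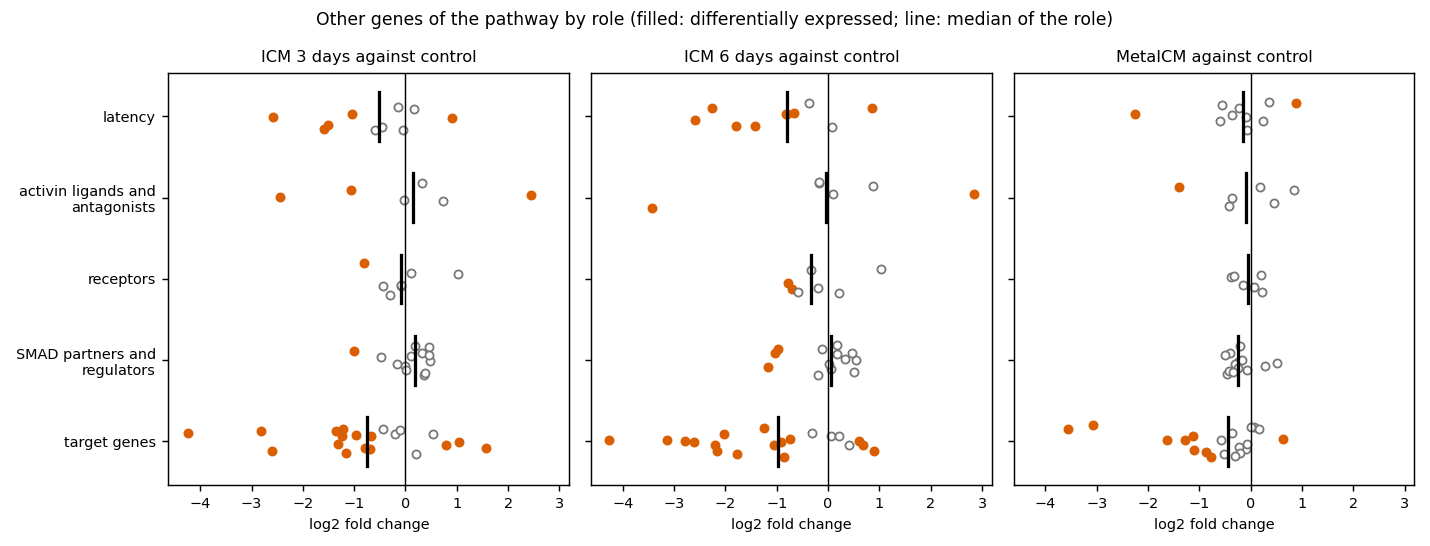
log2FC against control of the other pathway genes by role, one point per gene, filled where called, with the median of the role as a line; the vertical position within a role has no meaning. Target genes have medians of −0.75 after 3 days, −0.98 after 6 days and −0.44 in MetaICM.

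Among the 10 genes listed under latency, 4 were lower and 1 higher after 3 days, 7 lower and 1 higher after 6 days, and 1 each way in MetaICM. Of all genes tested in these comparisons, 13.2%, 17.2% and 8.99% were lower and 8.85%, 13.3% and 7.41% higher. ITGB8, the β subunit of an integrin that releases latent TGF-beta, had 74.5 and 109 CPM in control, 16.0 and 14.6 CPM after 3 days, 22.6 and 15.6 CPM after 6 days and 19.5 and 19.1 CPM in MetaICM. It fell in all 3 comparisons with control, by a log2FC of −2.58, −2.27 and −2.25. ITGB5, which encodes another integrin β subunit, went from 103 and 75.3 CPM in control to between 139.9 and 183 CPM in the other libraries and was called higher in all 3 (0.91, 0.85 and 0.88). LTBP2 encodes a matrix protein of the family named for binding latent TGF-beta, and its own binding of the ligand was not examined. It fell in steps from 263 and 205 CPM in control to 83.2 and 81.3 CPM after 3 days and 38.6 and 38.7 CPM after 6 days. MetaICM held 159 and 151 CPM of LTBP2, with a log2FC against control of −0.599 (edgeR adjusted p = 0.00870), narrowly under the cutoff. LRRC32 (GARP), which tethers latent ligand to the cell surface, fell from 9.87 and 10.3 CPM in control to between 2.82 and 3.72 CPM after 3 and 6 days (log2FC −1.59 and −1.79).

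The activin antagonist FST (follistatin) dipped at 3 days. It had 173 and 133 CPM in control, 81.7 and 65.3 CPM after 3 days, 189 and 137 CPM after 6 days, and 109 and 128 CPM in MetaICM. FST fell after 3 days (log2FC −1.06, SE 0.16, adjusted p = 0.000382) and was higher again after 6 than after 3 days (log2FC 1.14, SE 0.13, adjusted p = 4.26e-06). The ratio of INHBA to FST per kilobase, which was not among the planned ratios, was 0.288 and 0.275 in control and 0.426 and 0.513 after 3 days. It was 0.136 and 0.178 after 6 days and 0.247 and 0.244 in MetaICM. The conditions did not overlap in it, and how many other ratios behave so was not counted. INHBE, a little-expressed activin subunit gene, fell from 6.48 and 5.71 CPM in control to 1.24 and 0.944 CPM after 3 days and 0.644 and 0.478 CPM after 6 days, and had 2.23 and 2.43 CPM in MetaICM. MSTN (myostatin) was called higher after 3 and 6 days but rests on 23, 13, 28 and 20 pairs against 3 and 2 in control, so no fold is given, and DESeq2 did not call it after 3 days.

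Of the 7 other receptor genes, TGFBR3 (betaglycan), a co-receptor that presents ligand to TGFBR2, was the one called after 3 days. It fell from 38.4 and 34.7 CPM in control to 22.1 and 19.8 CPM after 3 days (log2FC −0.80) and 24.2 and 20.9 CPM after 6 days (log2FC −0.70), a 6-day call that was lost without 6-day replicate 2. ACVR2B, an activin type II receptor, was lower after 6 days (log2FC −0.78), a call that was lost without 6-day replicate 1. In MetaICM 0 of the 6 receptor genes tested were called against control by edgeR or DESeq2, and TGFBR3 was the 1 with an unadjusted p under 0.05 (log2FC −0.33, adjusted p = 0.0989).

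SMAD4, the partner that SMAD2 and SMAD3 need, stayed between 77.7 and 101 CPM in all libraries and was not called in any comparison. SKI, the homologue of SKIL, had 70.6 and 84.2 CPM in control, 53.3 and 57.5 CPM after 3 days, 35.4 and 33.7 CPM after 6 days and 56.4 and 61.0 CPM in MetaICM, and it fell by 6 days (log2FC −1.17, SE 0.13, adjusted p = 6.52e-05). PMEPA1, a feedback inhibitor that traps SMADs, had 7.49 and 7.53 CPM in control, 11.1 and 9.37 CPM after 3 days, 4.56 and 2.76 CPM after 6 days and 7.28 and 7.12 CPM in MetaICM. From 3 to 6 days it fell by a log2FC of −1.50 (SE 0.22, adjusted p = 7.77e-05), as SMAD7 and SKIL did. Its log2FC after 6 days against control was −1.04, a call that was lost without 6-day replicate 2. TGIF2, a repressor that binds SMADs, fell after 3 days (log2FC −1.0) and after 6 days (−0.98, lost without 6-day replicate 2). In MetaICM 0 of the 13 partners and regulators tested were called against control by edgeR or DESeq2. At an unadjusted p under 0.05 edgeR had 1 higher and 7 lower. Of these, SMURF2 (higher) and NEDD4L, TGIF1, SKI and TRIM33 (lower) had edgeR adjusted p of 0.0104, 0.0146, 0.0325, 0.0354 and 0.0473. They missed only the log2FC cutoff, while USP15, TGIF2 and ZFYVE9 did not reach an adjusted p under 0.05.

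**Figure D5:**
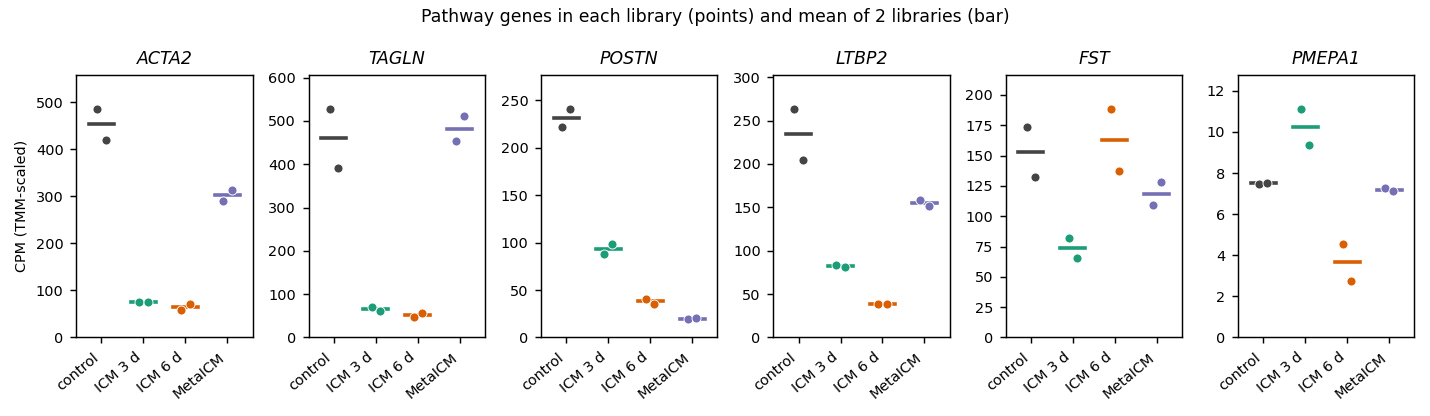
CPM of 6 pathway genes in each library (points, 2 per condition) with the mean (bar), on linear axes from 0. ACTA2 and TAGLN are low after 3 and 6 days and high in control and MetaICM, POSTN is lowest in MetaICM (19.3 and 20.1 CPM), and FST and PMEPA1 move in opposite directions between 3 and 6 days.

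The target genes of the pathway in fibroblasts were mostly lower with ICM, 12 lower and 3 higher of 20 tested after 3 days and 13 lower and 3 higher after 6 days. Of all genes tested, 13.2% were lower and 8.85% higher after 3 days, and 17.2% lower and 13.3% higher after 6 days. ACTA2 (smooth muscle actin) had 486 and 419.7 CPM in control, 75.3 and 74.9 CPM after 3 days, 58.8 and 72.2 CPM after 6 days and 291 and 314 CPM in MetaICM. TAGLN (transgelin, of the contractile apparatus) had 528 and 392 CPM in control, 70.8 and 60.2 CPM after 3 days, 48.2 and 57.0 CPM after 6 days and 453 and 510.3 CPM in MetaICM. Both fell after 3 and 6 days (log2FC −2.60 and −2.79 for ACTA2, −2.81 and −3.13 for TAGLN), and in MetaICM neither was called against control (−0.59 and 0.06). For ACTA2 this MetaICM value was narrowly under the cutoff, with an edgeR adjusted p of 0.00653 and no overlap with the control libraries. For TAGLN it was not significant (edgeR adjusted p = 0.781). Compared with 3 days, MetaICM was higher by 2.01 for ACTA2 and 2.88 for TAGLN. ELN (elastin) fell from 144 and 45 pairs in control to between 4 and 8 pairs in the ICM libraries and 17 and 15 in MetaICM. Against 3 and 6 days it passed the count filter only through the control libraries, which held 8.56 and 3.73 CPM. Its log2FC of −4.23, −4.26 and −3.08 (SE 0.50, 0.50 and 0.42) are therefore rough. With 1 library left out they ran from −4.70 to −3.48, −4.71 to −3.52 and −3.52 to −2.32.

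Other targets did not follow the contractile genes. POSTN (periostin), a matrix protein, fell from 222 and 241 CPM in control to 88.4 and 98.1 CPM after 3 days, 40.4 and 35.7 CPM after 6 days and 19.3 and 20.1 CPM in MetaICM, where its log2FC against control was −3.56 (SE 0.12, adjusted p = 2.43e-07). SPHK1, a sphingosine kinase, was called lower than control after 3 days (log2FC −1.22), after 6 days (−1.25) and in MetaICM (−1.64). Its control libraries lay apart, at 24.9 and 13.4 CPM. With 1 library left out, its MetaICM value ran from −2.00 to −1.11. CCN2, the connective tissue growth factor gene, was not called in any of the 6 comparisons. The 3 targets called higher after 3 days, and also after 6 days, were BHLHE40, CDKN2B and SNAI2, which are named after their values were seen, and in MetaICM SNAI2 was the 1 called higher against 8 lower. Of all genes tested in MetaICM against control, 7.41% were higher and 8.99% lower.

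From 3 to 6 days, 11 of 55 pathway genes were called, 2 higher and 9 lower. MetaICM differed from 3 days in 20 of 58 genes (11 higher and 9 lower) and from 6 days in 30 of 56 (21 higher and 9 lower). The shares of the list were 20%, 34.5% and 53.6%, beside 8.07%, 23.4% and 27.7% of all genes. The median log2FC of the list was −0.20, 0.15 and 0.32 in these comparisons, and that of all genes tested was between −0.01 and 0.01. All 3 comparisons share libraries with those above.

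The label of lung fibroblast was checked against marker genes. All 10 fibroblast markers reached 1 CPM, with sums from 40886 to 42645 CPM in control, 22577 to 23990 CPM after 3 days, 17365 to 17584 CPM after 6 days and 37405 to 37547 CPM in MetaICM. Collagen genes carry much of these sums. Of 7 epithelial markers 2 reached 1 CPM, with sums of at most 8.76 CPM, of 6 leukocyte markers 2 did, with sums of at most 2.63 CPM, and CD3E had no count. Of 6 endothelial markers 3 reached 1 CPM, with sums from 131 to 234 CPM that came almost wholly from TEK, while CDH5 had at most 1 pair and PECAM1 at most 9. The fibroblast sum moved with ACTA2 and TAGLN, low after 3 and 6 days and high in MetaICM, and its part in the results above was not tested.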

How the data were processed

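The authors aligned read pairs to hg19 (GRCh37) with STAR (version 2.6.0c) and deposited, for each of the 8 libraries, raw counts of pairs on the exons of RefSeq genes from featureCounts (version 1.6.3). Per the file headers, both strands were counted together, with both ends mapped and no pair counted on several genes, so a gene and an antisense partner share the bases they overlap on. The paper's intron-based values were not analysed here.

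Pairs of conditions (4 libraries per fit) were compared with edgeR (version 4.0.16, R 4.3.3), TMM, the quasi-likelihood test and a filter on low counts (filterByExpr, minimum 10). The alternatives, among them DESeq2 (version 1.42.0), are given in the closing section. The fits were tested on simulated data with 100 genes changed by a log2 fold of 1 and 100 by 2. Over 15440 to 15928 genes in the 6 comparisons, the fits called 97% to 100% of the former and 100% of the latter. They called 9, 12 and 16 unchanged genes for 3 days, 6 days and MetaICM against control, and 1 to 6 in the other comparisons. The changed genes were drawn only from those expected to have at least 100 counts in the smallest library. Folds nearer the log2FC cutoff were not simulated, and neither were changes in genes with fewer counts, such as TGFB3. The shares recovered therefore do not cover smaller changes or genes with few counts.

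The members and gene lists were chosen with earlier results of these data known. All 10 members are reported. Of the pathway list, the text names, per role and comparison with control, up to 3 called genes with the largest log2FC whose libraries did not overlap and that had at least 10 counts in each library of the higher condition, plus SMAD4, TGFBR3, CCN2 and PMEPA1. Another gene fixed for naming is not reported here. For likeness of pattern, the gene with the highest correlation is named out of 3 computed per member. ITGB5 after 3 and 6 days, and values between conditions with ICM in their label, are given for genes so named. Tables and figures were made in Python 3.11.15, pandas 2.3.3, numpy 2.4.6 and matplotlib 3.10.9.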

Additional observations from a re-analysis of the deposited data

Results flagged for a closer look

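Some genes differed between 3 and 6 days of ICM by the direct comparison of the time points, so that their change against control was not the same at both. The members were TGFBR1 (log2FC −0.77 at 6 minus 3 days), SMAD7 (−0.89) and SKIL (−0.94), each with adjusted p of at most 0.000165 from edgeR's quasi-likelihood test. TGFBR1 was higher than control after 3 days and near it after 6 days, SMAD7 had a positive value after 3 days and a negative one after 6 days, neither of them called, and SKIL was called lower after 6 days only. Of the named pathway genes, PMEPA1 (−1.50), POSTN (−1.29), LTBP2 (−1.09) and SKI (−0.68) were lower after 6 than after 3 days, and FST (1.14) was higher. The test compares the libraries of the time points, and both share the control libraries in the differences from control. With 2 libraries per condition, no test for an outlying library was possible.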

How the results depend on the processing

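The replicate number as a block left the number of members called at 2, 3, 3, 3, 3 and 2 in the comparisons in the order of the report, and changed no member's call. The numbers do not pair the libraries: the correlation of the replicate differences ran from −0.111 to 0.172, and its value of −0.111 for MetaICM against 3 days led to a crossed pairing, added after seeing the data, which also gave 3 members. With each library left out in turn, where the lone library is assumed to vary like the other condition, the members called ranged from 1 to 2 (3 days against control), 2 to 4 (6 days against control), 2 to 6 (MetaICM against control), 2 to 3 (6 against 3 days), 3 to 3 (MetaICM against 3 days) and 1 to 2 (MetaICM against 6 days). The 6 came without control replicate 2, with TGFB2, INHBA and TGFBR2 added to TGFB3, TGFBR1 and SKIL. Thinning all libraries to 12095123 counts gave 5 members for MetaICM against control, with SMAD2 and INHBA added. For MetaICM against 6 days, 1 member (TGFBR1) was left with DESeq2, with all 8 libraries in one fit, with thinning and at an adjusted p under 0.01. In every alternative run the pathway calls stayed within 1.5 times the number reported.

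Log2FC near 0 changed sign. SMAD4 at 3 days against control became 0.0589 with library totals (−0.114 to 0.0740 with 1 library left out). TGFBR1 at 6 days became 0.0209 with library totals and 0.00338 with all genes with a count (−0.22 to 0.16). TGFB3 in MetaICM against 3 days became −0.0965 after thinning (−0.0528 to 0.46). With 1 library left out, values ran from −0.30 to 0.0210 for TGFB2, −0.12 to 0.35 for SKIL and −0.39 to 0.00533 for CCN2 at 3 days, −0.14 to 0.28 for CCN2 at 6 days, −0.17 to 0.0326 for TGFB2 at 6 against 3 days, and −0.0343 to 0.21 for TGFB1 and −0.17 to 0.13 for TGFBR2 in MetaICM against 6 days. The share of TGFB2 in the RNA of TGFB1, TGFB2 and TGFB3 was also taken per unshared base (added after seeing the data). This share rose to means of 62.9% in control, 59.6% at 3 days, 65.7% at 6 days and 59.7% in MetaICM, as its own construction sets. The ratio of INHBA to TGFB2 on the same bases (also added) fell to means between 0.500 and 0.742. For the changes of sign and of calls the cause was not tested. The depth limits TGFB3 most, with 28 to 84 pairs in a library.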

Other observations

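Further genes of the pathway list are described here, picked after their values were seen. LOX, an enzyme that cross-links collagen and elastin, stood at 473 ± 71.5 CPM in control (SD, n = 2, as for all values here), 243 ± 10.7 after 3 days, 625 ± 39.3 after 6 days and 369 ± 15.2 in MetaICM. It fell after 3 days against control (log2FC −0.97 ± 0.14 SE, edgeR's quasi-likelihood test, adjusted p = 0.000239) and was higher after 6 days than after 3 days (log2FC 1.36 ± 0.09, edgeR adjusted p = 3.45e-09). The 2 libraries of each of these conditions lay apart from those of the other in LOX.

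TGFBI, a secreted matrix protein named for its induction by TGF-beta, was at 2468 ± 236 CPM in control, 3583 ± 74.9 after 3 days, 2866 ± 151 after 6 days and 1154 ± 42.3 in MetaICM. Against control, TGFBI had a log2FC of 0.53 ± 0.14 after 3 days (edgeR adjusted p = 0.0123), under the cutoff. In MetaICM it fell against control (log2FC −1.10 ± 0.14, edgeR adjusted p = 0.000654). NOX4, an oxidase that makes hydrogen peroxide, was at 6.39 ± 0.454 CPM in control and 7.37 ± 0.348 after 3 days, and it fell after 6 days to 1.39 ± 0.161 CPM (log2FC −2.19 ± 0.26 against control, edgeR adjusted p = 8.91e-05). It also fell in MetaICM, where the libraries held 2.33 and 2.87 CPM (log2FC −1.29 ± 0.23, edgeR adjusted p = 0.00352).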
